A study of Mus musculus with 8 samples.

Results

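The 9 genes described here encode transcription factors that set and hold the identity of microglia, the resident macrophages of the brain: Sall1, Spi1 (which encodes PU.1), Irf8, Irf5, Mef2a, Mef2c, Runx1, Maf and Cebpa. They were chosen by name, with earlier results of these data known, and are 9 of the 26062 genes in the deposited count table. All 9 were found and all 9 passed the filter on low counts. RNA came from microglia taken with CD11b magnetic beads out of the lateral geniculate nucleus (LGN) of the thalamus, where axons of retinal ganglion cells end. The mice were male wild-type C57BL/6J animals of 2 to 3 months, with no transgene or drug named for any group. The groups were uninjured mice (2 libraries), mice 1 day after crush of both optic nerves (3 libraries) and mice 3 days after it (3 libraries). The crush injures the axons outside the brain, so the cells were sampled at the far end of those axons, not at the lesion. The labels name no sham operation, and they do not say whether a library is 1 mouse or a pool, so every p-value measures the spread between these libraries.

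As background, PU.1 is an ETS-family factor that opens the enhancers of all myeloid cells, and IRF8, RUNX1 and C/EBPα act with it as macrophages and microglia form. SALL1 is a zinc-finger repressor that, among myeloid cells of the mouse brain, is found mainly in microglia, and its loss in mice raises inflammatory and macrophage genes. The MEF2 factors, which bind an A/T-rich element common in microglial enhancers, and the bZIP factor c-MAF complete the set, and IRF5 lies downstream of IRF8 in mouse microglia activated by peripheral nerve injury.

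Mef2a, Mef2c and Runx1 had the smallest p-values of the 9 in the comparison of day 3 with day 1 given below, so the promoters of these 3 genes that hold a searched motif are shown. They are RefSeq sequences of build GRCm38.p6, from 250 bases before to 10 after an annotated start, written 5′ to 3′ on the gene's strand. Capitals mark the core GAGGAA bound by PU.1 (TTCCTC where it lies on the other strand) and, in Mef2a, a MEF2 element.
Mef2a promoter, chr7:67372849-67373108, minus strand: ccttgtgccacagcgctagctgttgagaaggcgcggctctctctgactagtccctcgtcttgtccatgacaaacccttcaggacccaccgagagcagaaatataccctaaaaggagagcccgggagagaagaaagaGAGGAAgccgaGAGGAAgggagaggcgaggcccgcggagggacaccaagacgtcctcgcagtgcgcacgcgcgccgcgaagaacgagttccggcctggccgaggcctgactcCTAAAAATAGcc
Mef2c first promoter, chr13:83503784-83504043, plus strand: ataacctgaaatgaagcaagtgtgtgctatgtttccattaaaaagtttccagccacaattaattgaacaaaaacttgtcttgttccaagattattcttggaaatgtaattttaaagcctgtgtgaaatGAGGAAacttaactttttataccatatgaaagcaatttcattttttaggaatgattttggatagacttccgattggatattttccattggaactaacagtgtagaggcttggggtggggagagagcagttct
Mef2c second promoter, chr13:83523406-83523665, plus strand: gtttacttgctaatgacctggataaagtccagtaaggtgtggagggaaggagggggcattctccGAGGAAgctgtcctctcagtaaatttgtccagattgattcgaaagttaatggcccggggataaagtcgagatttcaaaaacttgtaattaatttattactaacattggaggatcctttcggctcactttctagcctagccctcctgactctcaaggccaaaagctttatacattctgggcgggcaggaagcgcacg
Runx1 second promoter, chr16:92697320-92697579, minus strand: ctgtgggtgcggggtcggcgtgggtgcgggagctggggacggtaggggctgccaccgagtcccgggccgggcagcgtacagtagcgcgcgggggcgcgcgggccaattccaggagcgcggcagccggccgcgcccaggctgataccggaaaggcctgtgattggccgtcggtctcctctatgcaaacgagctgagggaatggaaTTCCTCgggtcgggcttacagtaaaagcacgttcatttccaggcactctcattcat
RefSeq promoters were found for 7 of the 9 genes, in 13 windows; Spi1 and Maf had no entry. Both strands of every window were searched for 6 motifs: CTA and TAG with any 4 bases between them (MEF2), GAGGAA (PU.1), TGTGGT (RUNX), TTGC and AA with any 2 bases between them (C/EBP), GAAA repeated after any 2 bases (IRF) and TGCTGAC (MAF), none of which overlapped another match. The MEF2 element CTAAAAATAG in the Mef2a promoter runs from base -2 to base 7 around the start, in the gene for a factor that itself binds such elements. A MEF2 match occurred in 3.32% of the 32851 promoter windows of that length. The PU.1 core occurred in promoters of Mef2a, Mef2c and Runx1, at bases -114 and -103 in Mef2a, at -122 and -186 in the first and second Mef2c windows and at -46 in Runx1, against 24.1% of all windows. The other 4 motifs had no match in the 13 windows, against 14.5% of all windows for RUNX, 9.85% for C/EBP, 3.07% for IRF and 3.96% for MAF. These are matches of letters and show neither binding nor its absence.

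The libraries held between 12700098 and 17994861 counted reads, and the 9 genes had between 383 reads (Cebpa) and 21388 reads (Mef2a) in any library. All 10 microglia markers looked for, among them P2ry12, Tmem119 and Csf1r, were detected in the libraries, with a summed level of 7536 to 10272 CPM (TMM-scaled reads per sequenced depth) in the uninjured libraries, 10307 to 13202 CPM at day 1 and 7861 to 9222 CPM at day 3. Markers of other cells were also present. The choroid plexus and ependyma list summed to 852 and 9694 CPM in the uninjured libraries, 6.08 to 113 CPM at day 1 and 1040 to 6593 CPM at day 3, and endothelial markers to 1258 and 1451 CPM in the uninjured libraries, 540 to 766 CPM at day 1 and 1010 to 1095 CPM at day 3. None of the markers of any list was at 0 in all libraries. Mitochondrially encoded genes took 13.6% to 21.9% of reads at day 1, less than in most other libraries, whose shares ran from 21.3% to 30.3%.

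Per kilobase of exon, Sall1 and Mef2a were the most abundant of the 9 transcripts and Cebpa the least. In uninjured microglia Sall1 averaged 70.9 ± 22.7 RPKM and Mef2a 68.8 ± 4.65 RPKM, followed by Irf5 at 48.4 ± 11.3 RPKM (SD, n = 2 libraries). Runx1, Maf, Spi1, Mef2c and Irf8 came next, between 38.5 and 27.7 RPKM, and Cebpa was last at 19.98 ± 3.20 RPKM. The ranges of Sall1 and Mef2a overlapped, as did each neighbouring pair from Runx1 down to Irf8, so those genes cannot be ordered beyond their spread, whereas Mef2a and Irf5, Irf5 and Runx1, and Irf8 and Cebpa did not overlap. At day 1 Sall1 averaged 101 ± 15.6 RPKM and Mef2a 83.6 ± 5.52 RPKM, again with overlapping ranges, and Cebpa 22.5 ± 1.69 RPKM (n = 3). At day 3 the order changed: Sall1 stood alone at the top at 61.5 ± 9.72 RPKM, Spi1 was next at 44.3 ± 3.62 RPKM, and Mef2a at 39.3 ± 3.46 RPKM overlapped Spi1 above it and Irf5 at 37.8 ± 2.81 RPKM below it (n = 3). Cebpa remained last, at 12.7 ± 1.09 RPKM. Exon lengths were taken from an annotation of a newer build than mm9, the build named for these data, so levels between genes are approximate. RNA was also linearly amplified, which favours 3′ ends, so division by exon length may understate long transcripts. Mef2a has 14681 exon bases, Sall1 5265 and Spi1 2695. In CPM, which ignores length, Mef2a averaged 576 at day 3, Sall1 324 and Spi1 119.

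**Figure D1:**
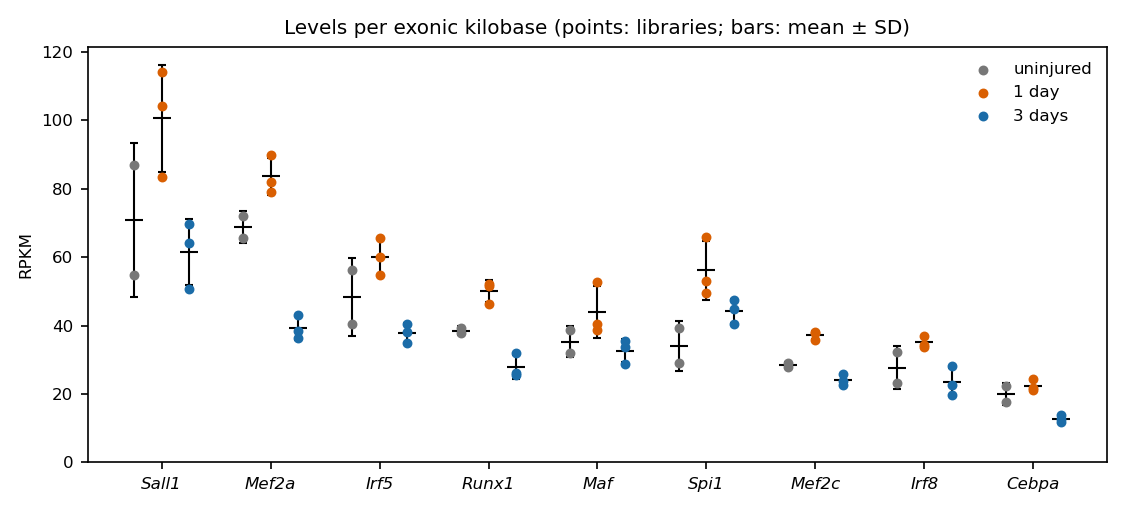
Level of each of the 9 genes per exonic kilobase (RPKM, vertical axis) in uninjured microglia, 1 day and 3 days after optic nerve crush; points are libraries, bars the group mean ± SD. Mef2a averaged 68.8 RPKM in uninjured mice, 83.6 at day 1 and 39.3 at day 3, while Cebpa was the lowest of the 9 at every time.

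The sharpest contrast was between the injured groups. Of the 9 genes, 7 fell at day 3 relative to day 1 (Mef2a, Runx1, Cebpa, Sall1, Irf5, Mef2c and Irf8), none rose, and all 9 had lower values in every day 3 library than in any day 1 library. The median change of the 9 was -0.67 on the log2 scale, from -1.09 for Mef2a to -0.34 for Spi1, where the median over all genes tested was 0.02. A gene was called at an adjusted p under 0.05 in edgeR's quasi-likelihood test, adjusted over 17390 genes; by that rule 5.75% of all genes tested fell, and 17.5% of the 4642 genes averaging 30 CPM or more, the range in which all 9 lie. Lower values without overlap occurred in 13.6% of all genes tested. That share was not computed for genes averaging 30 CPM or more. The 9 genes were chosen with earlier results of these data known, so none of these shares tests the set. Which of the weaker calls held depended on single libraries: the number of the 9 that fell was 3 when day 3 replicate 3 was left out and 4 when either day 1 replicate 1 or day 3 replicate 2 was, and Mef2a, Mef2c and Runx1 were called in all 18 alternative analyses.

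Against uninjured mice fewer changes passed the test. At day 1 none of the 9 rose and none fell, although all 9 point estimates were higher, with a median of 0.34 against 0.06 over all genes tested. In edgeR 4 of the 9 were under an unadjusted p of 0.05, as were 7.3% of all genes tested with a higher value; DESeq2 called 1 (Spi1) and limma-voom 0. Of the 9, 6 were higher in every day 1 library than in both uninjured ones, as were 14.3% of all genes tested. Over all genes tested 0.61% rose (2.18% of those averaging 30 CPM or more) and 1.16% fell at day 1, so that 34.4% of the called genes were higher, or 16.5% with scaling by library size alone. At day 3 only Mef2a among the 9 fell and none rose; 8 point estimates were lower and Spi1 was higher, with a median of -0.24 against -0.00 over all genes tested. Lower values without overlap were found for Mef2a, Mef2c, Runx1 and Cebpa (19.3% of all genes tested) and higher ones for Spi1 (20.1%). Over all genes tested 0.983% fell (3.32% of those averaging 30 CPM or more) and 2.49% rose at day 3, and 71.7% of the called genes were higher, or 56.5% with scaling by library size alone. The day 1 comparison and the comparison of day 3 with day 1 share the day 1 libraries, so their opposite signs are not independent. In a test for any difference among the 3 groups, 6 of the 9 were called (Mef2a, Runx1, Mef2c, Cebpa, Irf5 and Sall1), where 10% of all genes tested were. That count was 3 with a replicate block or without mitochondrially encoded genes, 2 without day 3 replicate 1 or 3, and 3 without day 3 replicate 2 or day 1 replicate 1. The shares given here for unadjusted p, for values without overlap and for any difference were not computed for genes averaging 30 CPM or more.

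**Figure D2:**
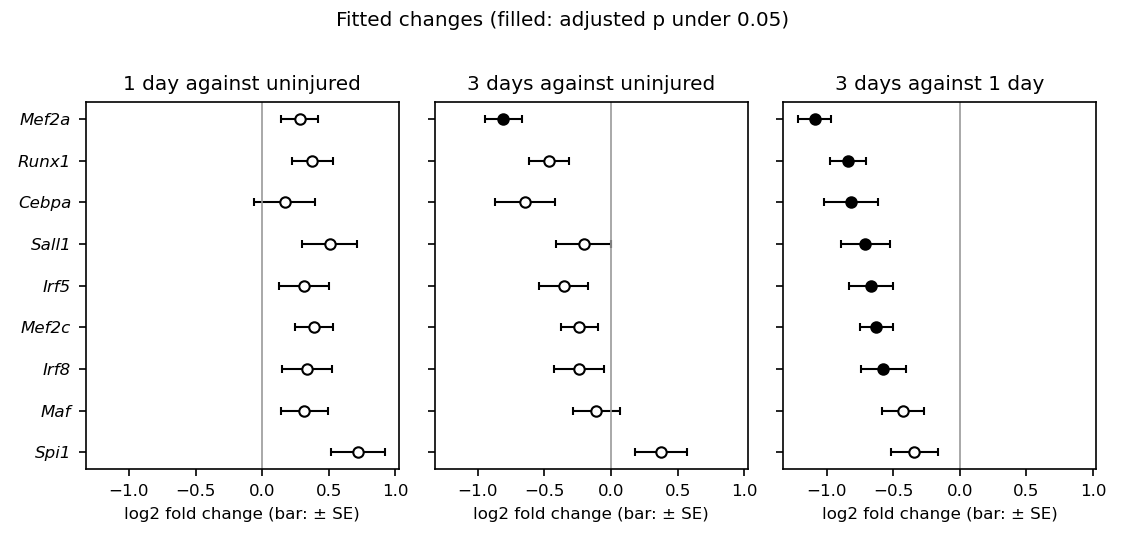
Fitted log2 fold change of each gene (horizontal axis; bars, ± SE) at day 1 against uninjured, day 3 against uninjured and day 3 against day 1; filled points had an adjusted p under 0.05. All 9 lie right of 0 in the first panel and left of 0 in the third, where 7 are filled; in the second only Mef2a is.

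Mef2a (ENSMUSG00000030557, chromosome 7), the gene for the MADS-box factor MEF2A, moved most. It stood at 1058 and 962 CPM in the uninjured libraries, 1204, 1161 and 1318 CPM at day 1 and 533, 632 and 563 CPM at day 3. The 3 day 3 libraries lay below all others, with a gap to the lowest uninjured library far wider than the spread within either group. Mef2a fell by 53.0% at day 3 relative to day 1 (log2 fold change -1.09, SE 0.13, edgeR adjusted p = 0.000134) and by 42.9% relative to uninjured mice (-0.81, SE 0.14, adjusted p = 0.00507). Without uninjured replicate 1, which leaves a single uninjured library that is assumed to vary like the other groups, the second call was lost (-0.75, adjusted p = 0.0707). The day 1 value was 0.28 (SE 0.14) above uninjured on the log2 scale, with an adjusted p of 0.379.

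Mef2c (ENSMUSG00000005583, chromosome 13) encodes the related MEF2C, known in mice to restrain microglial responses to inflammation. Its levels were 437 and 456 CPM in the uninjured libraries, 593, 562 and 600 CPM at day 1 and 354, 407 and 374 CPM at day 3. The groups formed 3 separate bands, with day 1 highest and day 3 lowest. Mef2c fell by 35.3% at day 3 relative to day 1 (log2 fold change -0.63, SE 0.12, edgeR adjusted p = 0.00541). Its difference at day 3 from uninjured mice was -0.24 (SE 0.14, adjusted p = 0.451), and at day 1 it was 0.39 (SE 0.14, adjusted p = 0.194).

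The proportion of Mef2a to Mef2c transcripts was lowest at day 3. The ratio of Mef2a to Mef2c reads was 2.42 and 2.11 in the uninjured libraries, 2.03, 2.06 and 2.20 at day 1 and 1.505, 1.554 and 1.505 at day 3. The day 3 ratios lay below all the others. Such a ratio within a library does not depend on how libraries are scaled. The mean log2 ratio at day 3 was 0.46 below that at day 1 (difference -0.46, exact permutation test, two-sided p = 0.1, the smallest that 3 against 3 libraries allows). The ratio of Mef2a to Spi1 reads was 13.6 and 9.09 in the uninjured libraries, 8.40, 6.55 and 9.88 at day 1 and 4.17, 5.81 and 4.65 at day 3, again lowest in the 3 day 3 libraries (log2 difference of day 3 from day 1 -0.76, exact permutation p = 0.1). The ratio of Irf8 to Irf5 overlapped between all groups, at 1.40 and 1.39 in the uninjured libraries, 1.49, 1.25 and 1.52 at day 1 and 1.69, 1.44 and 1.38 at day 3 (day 3 against day 1, exact permutation p = 0.6). These 3 ratios were picked after the values had been seen, so their tests describe these libraries.

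**Figure D3:**
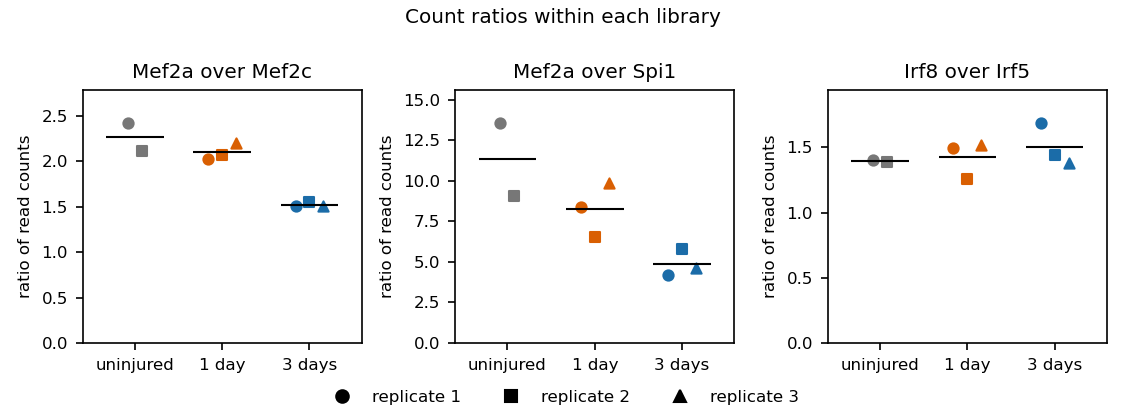
Ratio of read counts of gene pairs within each library (vertical axes, starting at 0) in uninjured mice and 1 and 3 days after crush; black lines are group means and marker shapes the replicate numbers. The Mef2a to Mef2c ratio was 1.505 to 1.554 in the day 3 libraries and at least 2.03 in the others, while the Irf8 to Irf5 ratio overlapped between all groups.

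Runx1 and Cebpa, whose products act with PU.1 during myeloid differentiation, also fell at day 3 relative to day 1. Runx1 (ENSMUSG00000022952, chromosome 16) stood at 453 and 474 CPM in the uninjured libraries, 628, 557 and 620 CPM at day 1 and 314, 386 and 309 CPM at day 3. As for Mef2c, the groups formed 3 bands that did not overlap. Runx1 fell by 44.2% at day 3 relative to day 1 (log2 fold change -0.84, SE 0.14, edgeR adjusted p = 0.00135). At day 3 it was 0.46 below uninjured mice on the log2 scale (-0.46, SE 0.15, adjusted p = 0.115), a difference that passed the threshold with DESeq2 (adjusted p = 0.0352) and with limma-voom sample weights (adjusted p = 0.0178). At day 1 it differed from uninjured mice by 0.38 (SE 0.15, adjusted p = 0.252).

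Cebpa (ENSMUSG00000034957, chromosome 7), for the bZIP factor C/EBPα, rested on the fewest reads of the 9. It stood at 46.7 and 58.6 CPM in the uninjured libraries, 64.3, 57.1 and 56.2 CPM at day 1 and 33.2, 36.6 and 30.9 CPM at day 3. The day 3 libraries were the lowest, and the uninjured and day 1 libraries overlapped. Cebpa fell by 43.3% at day 3 relative to day 1 (log2 fold change -0.82, SE 0.21, edgeR adjusted p = 0.0200). Leaving out day 1 replicate 1 ended the call (adjusted p = 0.0506), as did leaving out replicate 1 (0.0705) or replicate 3 (0.0970) of day 3. Against uninjured mice Cebpa was -0.65 at day 3 (SE 0.22, adjusted p = 0.150), which DESeq2 called (adjusted p = 0.0422), and 0.17 at day 1 (SE 0.23, adjusted p = 0.818).

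Sall1 (ENSMUSG00000031665, chromosome 8), the repressor most particular to microglia in the set, stood at 289 and 457 CPM in the uninjured libraries, 601, 549 and 439 CPM at day 1 and 367, 267 and 337 CPM at day 3. The 2 uninjured libraries were far apart and overlapped both injured groups, so the uninjured level was poorly fixed. Sall1 fell by 38.8% at day 3 relative to day 1 (log2 fold change -0.71, SE 0.19, edgeR adjusted p = 0.0250). That call was lost if day 1 replicate 1 was left out (adjusted p = 0.0828), and equally for replicates 2 (0.0993) and 3 (0.0840) of day 3. Its difference at day 3 from uninjured mice was -0.20 (SE 0.21, adjusted p = 0.725), and without uninjured replicate 2 the sign turned, to 0.16. At day 1 it differed by 0.51 (SE 0.21, adjusted p = 0.270).

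Maf (ENSMUSG00000055435, chromosome 8), for c-MAF, was not called in any comparison. Its levels were 264 and 318 CPM in the uninjured libraries, 435, 334 and 319 CPM at day 1 and 293, 238 and 277 CPM at day 3. The day 1 libraries were the highest, but the lowest of them lay within 1 CPM of the higher uninjured library. The difference of day 3 from day 1 was -0.43 (SE 0.16, edgeR adjusted p = 0.0986) and was called in none of the 18 alternative analyses. Against uninjured mice Maf differed by -0.11 at day 3 (SE 0.17, adjusted p = 0.847) and by 0.32 at day 1 (SE 0.18, adjusted p = 0.454).

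Spi1 (ENSMUSG00000002111, chromosome 2) stood apart from the other 8 genes at day 3. It was at 78.1 and 106 CPM in the uninjured libraries, 143, 177 and 133 CPM at day 1 and 128, 109 and 121 CPM at day 3. Every injured library, at either time, was above both uninjured ones, and the day 1 libraries were above those of day 3. The lowest day 3 library (109 CPM) was only slightly above the higher uninjured one (106 CPM). Its day 1 difference of 0.72 from uninjured mice was the largest of the 9 on the log2 scale (SE 0.20, edgeR adjusted p = 0.0865), and DESeq2 called it (0.69, adjusted p = 0.0318). At day 3 it was 0.38 above uninjured mice (SE 0.20, adjusted p = 0.395), the only positive value of the 9. Its difference of day 3 from day 1 was -0.34 (SE 0.18, adjusted p = 0.235). In edgeR no comparison of Spi1 passed the threshold, which does not show a stable level.

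The interferon regulatory factors Irf8 and Irf5 followed each other closely. Irf8 (ENSMUSG00000041515, chromosome 8) stood at 164 and 227 CPM in the uninjured libraries, 261, 239 and 242 CPM at day 1 and 198, 160 and 139 CPM at day 3. The day 3 libraries overlapped the uninjured ones, and those of day 1 were above both. Irf8 fell by 32.9% at day 3 relative to day 1 (log2 fold change -0.58, SE 0.17, edgeR adjusted p = 0.0417), the weakest of the 7 calls. Leaving out replicate 1 (adjusted p = 0.0983) or 3 (0.0757) of day 1, or replicate 2 (0.111) or 3 (0.188) of day 3, ended it, as did scaling by library size alone (0.0628) and leaving out mitochondrially encoded genes (0.0604). Against uninjured mice Irf8 was -0.24 at day 3 (SE 0.19, adjusted p = 0.618) and 0.34 at day 1 (SE 0.19, adjusted p = 0.454).

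Irf5 (ENSMUSG00000029771, chromosome 6) had 117 and 164 CPM in the uninjured libraries, 175, 190 and 159 CPM at day 1 and 117, 111 and 101 CPM at day 3. Here too the uninjured libraries overlapped those of either injured group. Irf5 fell by 37.1% at day 3 relative to day 1 (log2 fold change -0.67, SE 0.17, edgeR adjusted p = 0.0189), a call lost if replicate 2 (adjusted p = 0.0525) or 3 (0.0969) of day 3 was left out. Against uninjured mice it was -0.35 at day 3 (SE 0.18, adjusted p = 0.380) and 0.31 at day 1 (SE 0.19, adjusted p = 0.485). In the annotation 411 of the 2905 exon bases of Irf5 lie antisense to the gene Tnpo3. The strand setting of the counting is not given in the sources used here, so reads of Tnpo3, which had at most 870 in a library, may be counted with those of Irf5 or the reverse. Antisense overlaps of 51 to 440 bases, each a smaller share of the exon bases than in Irf5, occur in Cebpa, Maf, Mef2a and Runx1.

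**Figure D4:**
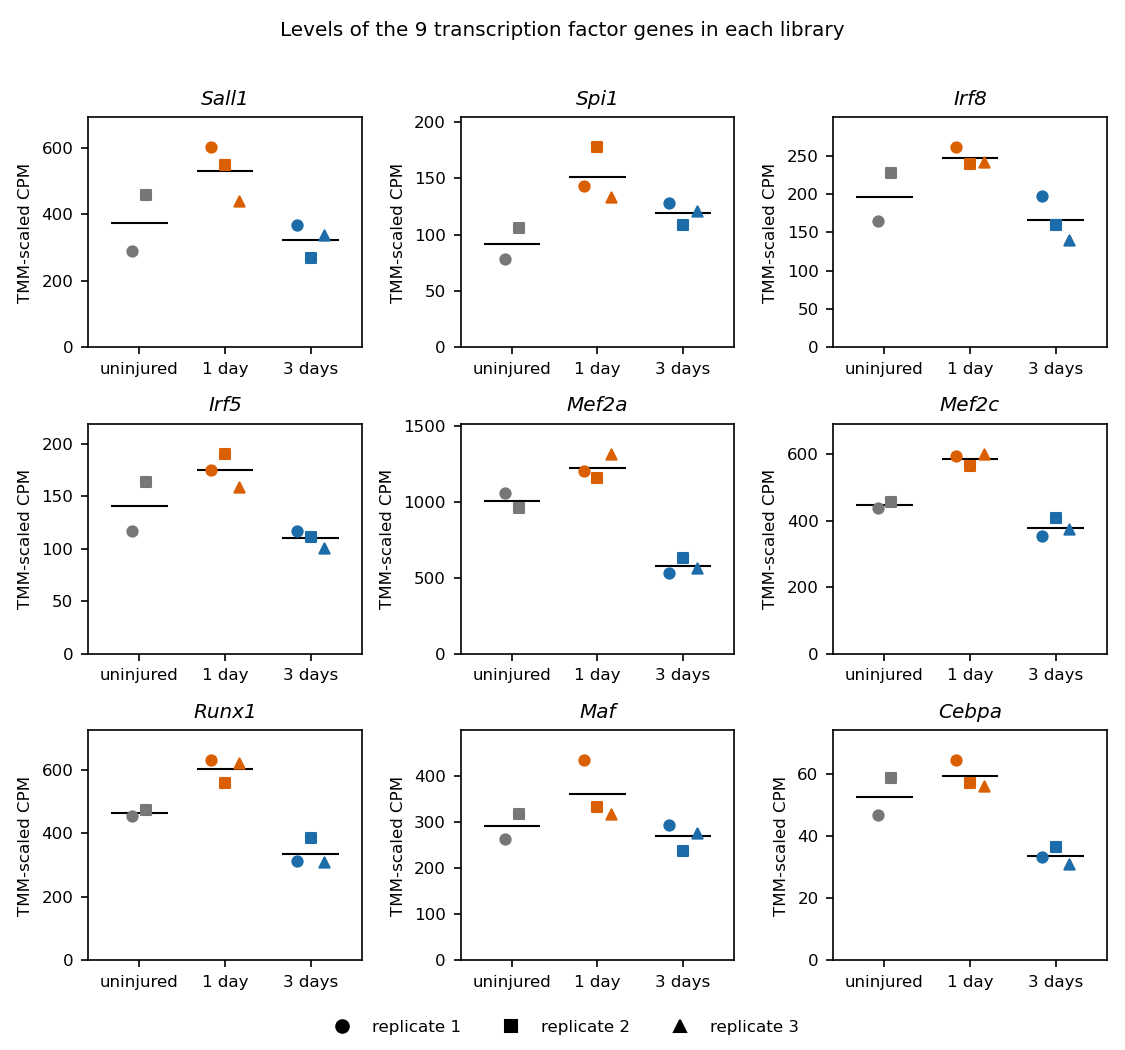
Level of each gene in each of the 8 libraries (TMM-scaled CPM, vertical axes starting at 0) in uninjured mice and 1 and 3 days after crush; lines are group means and marker shapes the replicate numbers. The day 3 libraries lie below those of day 1 in every panel, and in the Spi1 panel they lie above the uninjured ones.

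The uninjured libraries differed from each other in 1 direction: replicate 1 was lower than replicate 2 for 8 of the 9 genes, with Mef2a the exception. Coefficients of variation of the CPM in uninjured mice were 2.94% for Mef2c, 3.11% for Runx1 and 6.76% for Mef2a, against 32.0% for Sall1 and 23.3% for Irf5. The 3 genes called in every alternative analysis were also those whose 2 uninjured libraries were closest. At day 1, replicate 1 was the highest of its group for 5 of the 9 genes, and at day 3, replicate 3 was the highest for none and the lowest for Irf8, Irf5, Runx1 and Cebpa.

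Because these are bulk libraries, fewer microglia in a library and less RNA of a gene per microglia cannot be told apart. The summed microglia markers were themselves lower at day 3 (7861 to 9222 CPM) than at day 1 (10307 to 13202 CPM), while endothelial markers were higher at day 3 (1010 to 1095 CPM) than at day 1 (540 to 766 CPM), as were mural cell markers (902 to 1003 CPM at day 3, 579 to 662 CPM at day 1) and those of choroid plexus. Border macrophages and monocytes also express several of the 9, such as Spi1 and Maf. Markers of border macrophages summed to 407 to 511 CPM at day 3 and 562 to 805 CPM at day 1, and monocyte markers to 408 to 586 CPM at day 3 and 308 to 378 CPM at day 1. Single monocyte markers did not all follow their sum. Of 6 tested, 2 were higher and 4 lower at day 3 than at day 1, with a median log2 fold change of -1.10. Neutrophil markers summed to 19.6 to 42.9 CPM at day 3 and 55.0 to 146 CPM at day 1, and astrocyte markers to 56.9 to 72.8 CPM at day 3 and 81.9 to 138 CPM at day 1, so that both, like the 9 genes, were lower in every day 3 library than in any day 1 library. The part of these cells in the fall of the 7 genes was not tested. Set against the summed microglia markers of the same library, 7 of the 9 genes were still lower at day 3 than at day 1 and 2, Spi1 and Maf, were higher, with a median of -0.24 and a range from -0.66 (Mef2a) to 0.10 (Spi1) on the log2 scale. On that scale Mef2a, Sall1 and Irf5 were lower in every day 3 library than in any day 1 library. Set the same way against uninjured mice, Mef2a was -0.80, Cebpa -0.63, Irf5 -0.32 and Irf8 -0.22 at day 3, each lower in every day 3 library, and Spi1 was 0.40, higher in every one. The share of all genes tested without overlap was not computed on that scale. In CPM, 13.6% of them were lower without overlap at day 3 than at day 1. Against uninjured mice 19.3% were lower and 20.1% higher at day 3 by that measure. At day 1, 7 of the 9 were lower than in uninjured mice relative to the markers and 2 higher, with a median of -0.06. This scaling was added after the data had been seen, has no test, and uses as its base genes that themselves include P2ry12, Tmem119 and Siglech, which fell at day 3 relative to day 1. The most abundant gene of that base was Csf1r, listed below as a PU.1 target. It lay at 2801 and 4485 CPM in the uninjured libraries and averaged 5255 CPM at day 1 and 3652 CPM at day 3.

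The likeness of the patterns was measured as the root mean square difference of mean-centred log2 CPM over the 8 libraries, so that 0 is an identical pattern. Among the 9 genes the closest pair was Irf8 and Irf5 at 0.117, then Mef2c and Runx1 at 0.122 and Runx1 and Cebpa at 0.123. The farthest pair was Spi1 and Mef2a at 0.540. Among 9420 other expressed genes, those nearest to Mef2a were Ccnl1 (0.0483), Map3k8 (0.0642) and Tifa (0.0702). The nearest to Mef2c were Rhoq (0.0652), Med12 (0.0689) and Qk (0.0690), and to Runx1 they were Stk10 (0.0738), Vwa5a (0.0744) and Chd9 (0.0772). Cebpa was nearest to Gfm2 (0.0840), Rnf216 (0.0857) and Rhob (0.0994), and Sall1 to Rtn4rl1 (0.104), Tmem120b (0.116) and Abl1 (0.120). Irf5 was nearest to Elmsan1 (0.0710), Serinc3 (0.0719) and Git2 (0.0828), and Irf8 to Uap1l1 (0.0773), Mlxip (0.0806) and Nbeal2 (0.0943). Each of these 7 genes had at least 3 genes outside the set nearer to it than its nearest fellow. Since 9420 genes were searched and the set holds only 9, this says little about likeness within the set.

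Some relatives from the same protein families fell as well. At day 3 relative to day 1, so did 5.75% of all genes tested and 17.5% of those averaging 30 CPM or more. This list and those below were, like the 9 genes, chosen with earlier results of these data known. Of 23 relatives examined, 22 were in the table and 19 were tested. At day 3 relative to day 1, 4 of them fell and none rose: Maff (-1.46, SE 0.19, edgeR adjusted p = 0.000352), Mef2d (-0.93), Irf4 (-0.86) and Sall3 (-0.62), with a list median of -0.38. Maff and Mef2d kept that call with each library left out, whereas Sall3 lost it without day 3 replicate 3 and Irf4 without day 1 replicate 3 or day 3 replicate 2 or 3. Maff, a small MAF protein without an activation domain, was the only relative that also fell at day 3 against uninjured mice (-0.85, SE 0.21, edgeR adjusted p = 0.0402), a call lost without either uninjured library or day 3 replicate 2 or 3, and edgeR called no relative at day 1, where 4 were higher at an unadjusted p under 0.05 and DESeq2 and limma-voom each called 1 (Mef2d). Sall3, with 16.1 to 24.8 RPKM in the group means, was expressed below Sall1 in every group. Cebpb, the C/EBP member linked to inflammation, was low, at 9.46 and 11.02 CPM in the uninjured libraries, 13.7, 27.04 and 9.12 CPM at day 1 and 20.01, 12.96 and 22.3 CPM at day 3, and was not called (day 3 against day 1, 0.15, SE 0.40).

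None of the partners of these factors was called lower at day 3 relative to day 1 by edgeR. By that rule 5.75% of all genes tested were lower, and 17.5% of those averaging 30 CPM or more. Against those shares, 0 in a list of 13 does not set the partners apart. The 13 partners and co-repressors included Cbfb (partner subunit of RUNX1), class IIa histone deacetylases that bind MEF2 and NuRD complex members recruited by SALL1. Of the 13, none rose and none fell at day 3 relative to day 1 in edgeR, and the list median was 0.23. At an unadjusted p under 0.05, 3 were higher, Cbfb (0.53), Hdac7 (0.99) and Mta1 (0.59), where 13.1% of all genes tested were; DESeq2 called Hdac7 and limma-voom 0. At day 1 the NuRD helicase gene Chd4 rose, at 414, 407 and 458 CPM against 255 and 281 CPM in uninjured mice (0.67, SE 0.15, edgeR adjusted p = 0.0393), a call that held in 4 of 18 alternative analyses and in none with a library left out, and edgeR called no other partner in any comparison; DESeq2 and limma-voom also called Chd4 at day 3 against uninjured mice. The list of 20 other myeloid regulators, which holds the RNA-binding protein gene Zfp36l2 beside transcription factors, had 19 tested members. At day 3 relative to day 1, 5 fell (Id2, -1.08; Zfp36l2, -0.76; Stat3, -0.69; Smad3, -0.67; Ikzf1, -0.61) and Bhlhe40 rose (0.60, SE 0.18, edgeR adjusted p = 0.0477), with a median of -0.55. These 5 of 19 stand beside the shares of 5.75% and 17.5% given above. Stat3 and Zfp36l2 kept their calls with each library left out. The call was lost for Id2 without replicate 1 or 3 of either day, for Smad3 without day 1 replicate 1 or day 3 replicate 1 or 3, and for Ikzf1 without day 1 replicate 3 or day 3 replicate 2 or 3, and that of Bhlhe40 held in 5 of 18 alternative analyses. Smad3, which carries TGF-β signals that maintain microglia, and Bhlhe40 are named because they complete the count, after their values were seen. Against uninjured mice Zfp36l2 was the only one edgeR called, at day 3 (-0.85, adjusted p = 0.00950, not called without either uninjured library). In that comparison DESeq2 called 4 lower and 1 higher, and limma-voom called 3 lower. At day 1 edgeR called 0, and before adjustment 4 were under 0.05, 3 of them higher and 1 lower. DESeq2 called 2 at day 1 and limma-voom 1.

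Known targets of PU.1 moved in both directions at day 3 relative to day 1. Of 16, 6 fell and 3 rose, with a median of -0.39. Of all genes tested 5.75% fell and 5.24% rose. Among those averaging 30 CPM or more 17.5% fell and 6.92% rose. The largest fall was in Itgam, which encodes the CD11b protein that the beads bind. Itgam was at 597 and 419 CPM in the uninjured libraries, 1366, 1133 and 1347 CPM at day 1 and 304, 294 and 297 CPM at day 3. It rose at day 1 against uninjured mice (1.34, SE 0.17, edgeR adjusted p = 0.00173) and fell at day 3 relative to both other groups (-2.10 against day 1, edgeR adjusted p = 2.57e-06; -0.77 against uninjured, adjusted p = 0.0165). The last of these was lost without uninjured replicate 1 or day 3 replicate 1 or 3. In the annotation 3450 of its 5024 exon bases are shared with the gene Gm49368, so its count is uncertain. Csf3r (-1.14), Lyz2 (-1.09) and the NADPH oxidase subunit gene Ncf1 (-0.71) also fell at day 3 relative to day 1. In the opposite direction Cybb, for the catalytic subunit of the same oxidase, stood at 344, 328 and 384 CPM at day 3, above the 121, 162 and 81.1 CPM of day 1 (1.54, SE 0.21, edgeR adjusted p = 0.000443), and the lysosomal marker gene Cd68 (0.59) and the scavenger receptor gene Msr1 (0.85), the last named to complete the count after its value was seen, rose as well. The calls of Ncf1, Cd68 and Msr1 each ended with at least 1 library left out, day 3 replicate 3 among them, and that of Msr1 with 5. At day 1 all 16 point estimates were higher than in uninjured mice, with a median of 0.46 against 0.06 over all genes tested. In edgeR 8 of the 16 were under an unadjusted p of 0.05, as were 7.3% of all genes tested with a higher value. Of these targets, edgeR called Itgam and Ncf1 (0.94) higher at day 1, while DESeq2 and limma-voom each called 4. Against uninjured mice at day 3 Cybb (1.88) and Cd68 (1.22) rose and Itgam and Csf3r (-0.75) fell. Ncf1 was not called at day 1 without uninjured replicate 1, and Csf3r was not called at day 3 without either uninjured library, day 1 replicate 3 or any day 3 library. Csf1r, the receptor that keeps microglia alive, was not called by edgeR in any comparison (day 3 against day 1, -0.53, SE 0.18, adjusted p = 0.0756), while DESeq2 called it lower at day 3 than at day 1 (adjusted p = 0.0417), as did edgeR without either uninjured library.

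Of 8 tested genes that the IRF8 and IRF5 axis is known to drive in mouse microglia, Il1b rose at day 1 against uninjured mice, at 362, 546 and 329 CPM against 117 and 122 CPM (1.79, SE 0.22, edgeR adjusted p = 0.00132), and was also raised at day 3 (1.44, adjusted p = 0.00191). Tlr2 rose at day 3 against both other groups (1.08 against uninjured, 0.46 against day 1), while the cathepsin gene Ctss and the purinergic receptor gene P2ry12 fell at day 3 against both. Ctss was -1.22 and P2ry12 -0.85 against day 1, and the list median was -0.28. The Tlr2 call against day 1 held in 6 of 18 alternative analyses and in 1 of 8 with a library left out, and the Ctss call against uninjured mice ended without either uninjured library or day 3 replicate 1 or 3. Among 15 homeostatic microglia genes, which include P2ry12, none rose in any comparison in edgeR. At day 3 relative to day 1, 5 fell: Siglech (-1.09), Slc2a5 (-0.91), P2ry13 (-0.88), Tmem119 (-0.87) and P2ry12, with a median of -0.45; Slc2a5, not called without day 3 replicate 3, is named to complete the count, after its value was seen. At day 3 against uninjured mice P2ry12, Siglech and P2ry13 fell, although Siglech was not called without uninjured replicate 2 or day 3 replicate 1 or 3, and P2ry13 without either uninjured library, day 1 replicate 1 or day 3 replicate 1 or 3, and DESeq2 and limma-voom also called Fcrls higher. At day 1 edgeR, DESeq2 and limma-voom called 0 of the 15, and in edgeR 6 were higher at an unadjusted p under 0.05. Cx3cr1, for the fractalkine receptor, was not called (day 3 against day 1, -0.21, SE 0.17). Of 10 genes that rise when Sall1 is lost from mouse microglia, 2 fell (Lyz2 and Cd74, -0.52) and Tlr2 rose at day 3 relative to day 1, with a median of 0.06 (Cd74 was not called with any day 3 library or day 1 replicate 1 or 2 left out); edgeR called only Tlr2 at day 3 against uninjured mice, and 0 at day 1, where 3 were higher at an unadjusted p under 0.05 and DESeq2 and limma-voom called Tlr2. For day 3 against day 1, 5.75% of all genes tested were called lower and 5.24% higher, and among genes averaging 30 CPM or more 17.5% were called lower and 6.92% higher. The second pair of shares is the closer background for these lists, since 69 of their 94 tested genes, and all 27 that were called, lie in that range. The counts at an unadjusted p under 0.05 at day 1 stand beside the 7.3% of all genes tested that were higher by that rule.

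**Figure D5:**
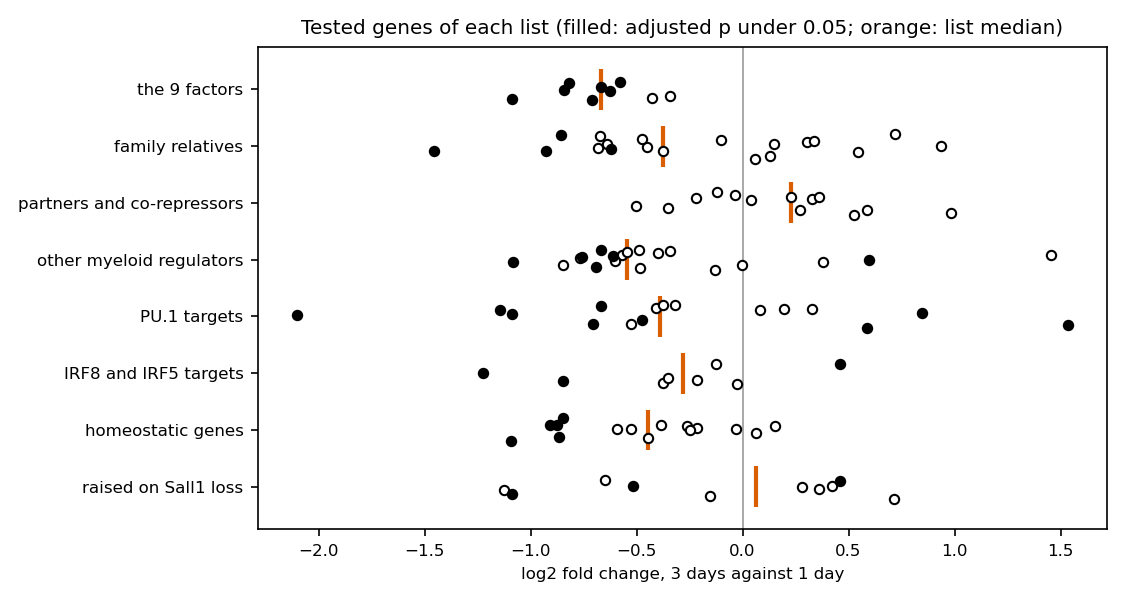
Log2 fold change of day 3 against day 1 (horizontal axis) for the tested genes of each list; filled points had an adjusted p under 0.05 and orange bars mark list medians, and genes in several lists appear in each. The 9 factors all lie left of 0 (median -0.67), the partners and co-repressors on both sides of it with none filled. Of all genes tested 5.75% were called lower and 5.24% higher. Among those averaging 30 CPM or more the shares were 17.5% and 6.92%.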

How the data were processed

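The deposited table holds raw read counts per Ensembl gene for 8 libraries of CD11b bead-selected LGN microglia. Per the labels' protocols, RNA was linearly amplified before library construction; the submitters' processing notes name FastQC, STAR, HTSeq and the build mm9. The sources used here give no versions, annotation or strand option of the counting. Amplification favours the 3′ ends of transcripts, so levels between genes are approximate.

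Symbols came from GENCODE M21 (25939 of 26062 IDs matched; the 123 others held 0.117% of counts). Counts were fitted with edgeR 4.0.16 in R 4.3.3: expression filter (17390 genes kept), TMM scaling, 1 mean per group over all 8 libraries, quasi-likelihood tests with Benjamini-Hochberg adjustment over all genes tested. A gene rose or fell at an adjusted p under 0.05. The SE is the log2 fold change divided by the root of F. CPM are TMM-scaled, and RPKM divide them by exonic kilobases. The script was tested on simulated data. Between replicates, counts differed beyond sampling noise in every group. Counting error is small at these depths (12700098 to 17994861 reads), so the spread between libraries sets the precision.

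Alternatives were other scalings and filters, no mitochondrially encoded genes, DESeq2 1.42.0, limma 3.58.1 (voom, with and without sample weights), a replicate block, fits on 2 groups, and leaving out each library. The members and gene lists were chosen with earlier results of these data known. Named beside the 9 genes were 6 fixed comparison genes (Cebpb, Csf1r, Itgam, P2ry12, Cx3cr1 and Tmem119), up to 4 called genes of smallest p per list and comparison, and the 3 genes nearest in pattern to each called member. In the lists, 1 gene is not reported here and is left out of the counts. Promoters were trimmed to 10 bases after the start. Exact tests used scipy 1.17.1.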

Additional observations from a re-analysis of the deposited data

Results flagged for a closer look

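Each value here is a log2 fold change of day 3 against day 1 that passed the test of the difference between the injured groups (edgeR adjusted p under 0.05). It is listed because the level in the libraries differed between the times after crush. Among the 9 factors these were Mef2a at -1.09, Runx1 at -0.84, Cebpa at -0.82, Sall1 at -0.71, Irf5 at -0.67, Mef2c at -0.63 and Irf8 at -0.58.

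Among other regulators in the gene lists they were Maff at -1.46, Id2 at -1.08, Mef2d at -0.93, Irf4 at -0.86, Zfp36l2 at -0.76, Stat3 at -0.69, Smad3 at -0.67, Sall3 at -0.62, Ikzf1 at -0.61 and Bhlhe40 at 0.60. Among genes of the target lists that were lower at day 3 than at day 1 they were Itgam at -2.10, Ctss at -1.22, Csf3r at -1.14, Siglech at -1.09, Lyz2 at -1.09, Slc2a5 at -0.91, P2ry13 at -0.88, Tmem119 at -0.87, P2ry12 at -0.85, Ncf1 at -0.71, Itgb2 at -0.67, Cd74 at -0.52 and Ptprc at -0.48. Those higher were Cybb at 1.54, Msr1 at 0.85, Cd68 at 0.59 and Tlr2 at 0.46. Groups of 2 and 3 libraries are too small for the test of single outlying libraries.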

How the results depend on the processing

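Over 18 alternative analyses all 9 factors had lower estimates at day 3 than at day 1, and Mef2a, Mef2c and Runx1 were called in each. Irf5 was called in 16, Cebpa and Sall1 in 15, Irf8 in 12, and Maf and Spi1 in 0. Leaving out 1 library gave 3 to 7 falls. Against uninjured mice at day 3, the count of falls was 0 to 1 with a library left out, 3 with DESeq2 and 2 with limma-voom sample weights; at day 1 DESeq2 gave 1 rise. In the test for any difference, whose alternatives were added after the data had been seen, 6 of the 9 were called, and 3 without mitochondrially encoded genes, 3 with the replicate block and 2 to 5 without 1 library; genes called numbered 1741, and 2895 with DESeq2, 2911 with sample weights and 653 to 2146 without 1 library. Without uninjured replicate 2 the day 3 difference from uninjured mice turned to 0.16 for Sall1, 0.011 for Irf8 and 0.026 for Maf, while without uninjured replicate 1 it was -0.51, -0.46 and -0.24. The cause was not tested.

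Whole-table counts moved more. Genes higher at day 1 than in uninjured mice numbered 106, and 46 with library-size scaling, 327 with DESeq2, 205 with limma-voom, 170 with its sample weights, 25 with the libraries of 2 groups and 11 to 139 without 1 library. Genes lower numbered 202, and 497 with DESeq2, 122 with sample weights, 85 with 2 groups and 28 to 229 without 1 library. At day 3 against uninjured mice, 433 were higher, and 816 with DESeq2, 987 with sample weights, 926 with 2 groups and 97 to 603 without 1 library; 171 were lower, and 299 with no filter, 479 with DESeq2, 268 with limma-voom, 589 with sample weights, 419 with 2 groups and 11 to 379 without 1 library. For day 3 against day 1, 912 were higher, and 1401 with DESeq2 and 359 to 1165 without 1 library, and 1000 were lower, and 388 to 1197 without 1 library. Library-size scaling moved the median of all genes by -0.12 at day 1 and -0.15 at day 3 against uninjured mice, and turned the sign of none of the 9 factors.

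The labels do not say whether replicate numbers pair libraries. Deviations of same-numbered libraries correlated between -0.06 and 0.09, and those of differently numbered ones between -0.09 and 0.05. With only 2 uninjured libraries their deviations mirror each other, so these values cannot settle whether libraries were paired. With a replicate block 7 of the 9 factors fell at day 3 relative to day 1, and genes lower at day 3 than in uninjured mice numbered 83. Only 2 uninjured libraries limit every comparison with them.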
